A study of Macaca mulatta with 4 samples.

Results

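The RAB small GTPases were followed in the amygdala of infant rhesus macaques (Macaca mulatta) after repeated anaesthesia with sevoflurane, an inhaled halogenated ether. They were taken as every row of the count table whose symbol is RAB, a number and at most 1 further letter, so that interacting proteins such as the RAB11FIP family stayed out. Of 35395 rows, 60 carried such a symbol, and the 53 with at least 10 reads in 2 or more of the 4 libraries were kept. These 53 rows held 52 different symbols, because RAB4B was matched to 2 gene IDs. The 4 libraries came from wild type animals, with 1 female and 1 male as controls and 1 female and 1 male given sevoflurane at roughly 2.5 to 3% on 3 occasions, each lasting 4 hours, near postnatal days 7, 21 and 35. Tissue was collected directly after the last exposure. The handling of the controls was not given in the sources used here, so anaesthesia and handling cannot be told apart. Nothing in the labels beyond the sex states that the libraries of a condition are separate animals. The p-values measure the spread between these libraries, which includes the difference between the sexes. The fit draws the spread of each gene towards a trend over all tested genes, so an SE can exceed the spread of the gene itself.

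RAB proteins are molecular switches that mark membranes. Bound to GTP and anchored by prenyl groups, each recruits effectors such as tethers, motors and coat adaptors to 1 kind of vesicle or organelle, and after GTP hydrolysis it is drawn off the membrane for another round. Exchange factors switch a RAB on and GTPase-activating proteins switch it off. In neurons they serve synaptic vesicle release, the recycling of receptors to the surface, and the passage of cargo along axons and dendrites to lysosomes.

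Reads on genes ranged from 12477047 to 16293371 per library, and the 53 RAB rows took 0.573% to 0.683% of them. Levels below are CPM (counts per 1e+06 reads, with TMM scaling between libraries) and are not corrected for transcript length, so they compare a gene with itself. The 8 neuronal markers did not move as one. SNAP25 and STMN2 had 1542 CPM or more in every library and were not called. SYT1 rose by 5.24 (7.37 to 36.2 CPM in controls, 815 to 841 CPM after sevoflurane), ELAVL4 rose by 3.23 and RBFOX3 fell by 1.04 on the log2 scale. The choroid plexus markers stood apart in 1 library. Their sum over the 7 matched genes was 18208.5 CPM in the control male and 8.38 to 48.5 CPM in the other libraries, with FOLR1 at 0 reads in the sevoflurane male and KCNJ13 at 0 in both sevoflurane libraries. Microglial markers summed to 434 and 394 CPM in the control female and male and to 163 and 223 CPM in the sevoflurane female and male, with 5 of 8 called lower. Astrocyte markers summed to 5449.5 and 5399.9 CPM in the control female and male and to 3657 and 4516 CPM in the sevoflurane female and male, with 4 of 8 called lower, GFAP (-2.53) and S100B (-1.94) among them, and SLC1A2 called higher (4.30). The sums of endothelial markers (159.8 and 207 CPM in controls, 123 and 118 CPM after sevoflurane) and of red blood cell markers (14.4 and 36.5 CPM in controls, 2.47 and 1.72 CPM after sevoflurane) did not overlap either. Of 5 endothelial markers 2 were called higher (FLT1 at 4.97 and CDH5 at 3.13) and 1 lower (CLDN5 at -2.63). CLDN5 made up most of the endothelial sum in controls. It had 111 and 149 CPM in the control female and male and 21.5 and 20.4 CPM in the sevoflurane female and male. Of 4 tested red blood cell markers 2 were called lower. Oligodendrocyte markers overlapped, at 1496 and 6481 CPM in controls and 3079.5 and 4067 CPM after sevoflurane. Another wide difference ran through the libraries: of 76 cytosolic ribosomal protein genes 65 were called lower and 0 higher, with a median log2 fold change of -1.76. Whether these differences play a part in the RAB values was not tested. In bulk tissue, fewer cells of a type and less RNA per cell cannot be told apart.

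The family as a whole did not shift one way, while single members moved in both directions. Of the 53 RAB rows, all of which passed the filter on low counts, 13 were called higher and 12 lower in the sevoflurane libraries (edgeR's quasi-likelihood F-test, adjusted p under 0.05). That is 24.5% and 22.6% of the members, beside 21.3% and 19.4% of all 15417 genes tested, and 47.2% beside 40.7% in either direction. Among called genes alone, the median size of the log2 fold change was 1.76 for RAB genes and 2.01 for all genes. With genes not called included, the median log2 fold change was 0.07 for the RAB genes and 0.00401 for all genes. Leaving out 1 library moved the RAB median to between -0.07 (sevoflurane male) and 0.26 (control female). No member had under 10 reads in both libraries of a condition. The sevoflurane libraries lay above both controls for 22 members and below both for 20, which is 41.5% and 37.7% of the members beside 37.7% and 37.3% of all tested genes, and the libraries overlapped for the other 11. The summed level of the 53 rows was 6883 and 6355 CPM in the control female and male and 6035 and 6391 CPM in the sevoflurane female and male, so the conditions overlapped. Leaving out any 1 library lowered the number of called members, and the number called over all tested genes fell too. Both were lowest without the sevoflurane male. Without the control male, whose choroid plexus markers stood apart, the RAB median was 0.07. Without any single library, 13 of the 25 called members kept their call, and these were RAB3C, RAB27B, RAB5A, RAB8B, RAB9B and RAB22A among those that rose and RAB3A, RAB26, RAB11B, RAB24, RAB1B, RAB33A and RAB4B (ENSMMUG00000056624) among those that fell.

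**Figure D1:**
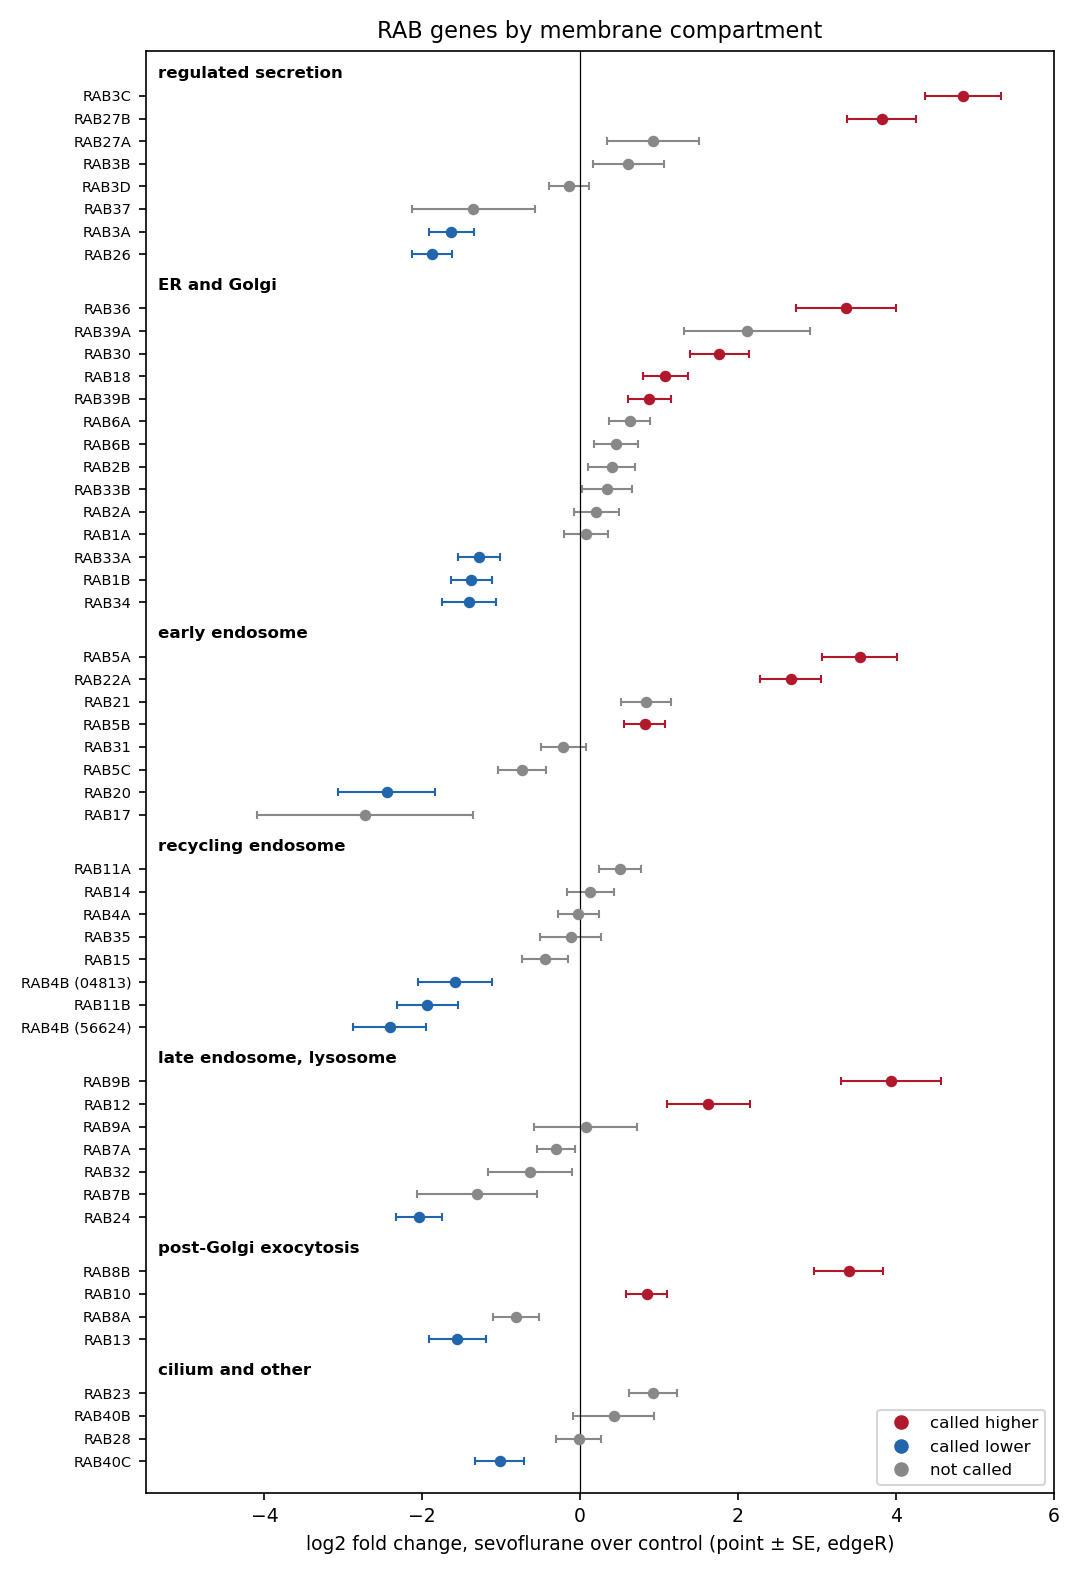
The log2 fold change of each of the 53 RAB rows (sevoflurane over control, point ± SE from the edgeR fit over 2 libraries per condition) is plotted by the membrane system the protein serves. Red points were called higher, blue lower and grey not called, and every compartment but the recycling endosome and the cilium group holds red and blue points.

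The compartments hold 4 to 14 rows each, so their counts of calls are coarse. Over all tested genes 21.3% were called higher and 19.4% lower, and no compartment was tested as a set. RAB genes of regulated secretion gave the widest contrast within 1 compartment. Of 8, 2 rose (RAB3C and RAB27B) and 2 fell (RAB3A and RAB26), and the median log2 fold change was 0.23. The median was 0.11 with the control female left out, 0.13 with the control male left out, -0.07 with the sevoflurane male left out, and 0.47 with library totals. RAB3A, the principal RAB of synaptic vesicles and a partner of RIM and rabphilin in calcium-triggered release, had 1259 and 1170.3 CPM in the control female and male and 448 and 336 CPM in the sevoflurane female and male. Both sevoflurane libraries were far below both controls (-1.63 ± 0.28, edgeR adjusted p = 0.00679). Its share of all reads on RAB genes went from 18.3% and 18.4% in the control female and male to 7.42% and 5.25% in the sevoflurane female and male.

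RAB3C, a close relative that also rides on synaptic vesicles, moved the opposite way. It was near the limit of detection in the controls, with 27 reads (1.76 CPM) in the female and 9 (0.799 CPM) in the male, against 582 (36.8 CPM) and 569 (39.1 CPM) in the sevoflurane female and male. Its log2 fold change of 4.85 ± 0.48 (edgeR adjusted p = 0.00196) was the largest rise among the members, and it was 5.58 without the control female library. The other RAB3 genes were not called. RAB3B had a log2 fold change of 0.61 ± 0.45, with overlapping libraries, and RAB3D, a RAB of secretory granules, one of -0.14 ± 0.26.

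RAB27B, which docks secretory granules and late endosomes at the plasma membrane, also rose, by less than RAB3C. It was at 6.46 and 4.62 CPM in the control female and male and at 55.1 and 102 CPM in the sevoflurane female and male, a rise of 3.82 ± 0.43 on the log2 scale (edgeR adjusted p = 0.00248). RAB27A, its paralog, was not called (0.92 ± 0.58, and 1.55 without the control female library). RAB26, which has been linked to the turnover of synaptic vesicles by autophagy, fell from 166 and 148 CPM in the control female and male to 42.0 and 43.5 CPM in the sevoflurane female and male (-1.88 ± 0.25, edgeR adjusted p = 0.0034). RAB37, a granule RAB known from mast cells, had 4.57 CPM in the control female but 1.08 to 1.33 CPM in the other libraries, and was not called (-1.35 ± 0.78, and -0.18 with the control female left out). With 70, 15, 17 and 18 reads it was the member nearest the limit of 10 reads in 2 libraries. Beside these genes, the summed level of 8 neuronal markers overlapped between conditions, with 2 called higher and 1 lower. It was 8307 and 7189 CPM in the control female and male and 7431 and 7658 CPM in the sevoflurane female and male. The sum covers markers that moved in opposite directions. SYP, 1 of the 8, was not called (-0.92), yet both sevoflurane libraries were below both controls. It had 3198 and 2378 CPM in the control female and male and 1671 and 1279 CPM in the sevoflurane female and male.

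**Figure D2:**
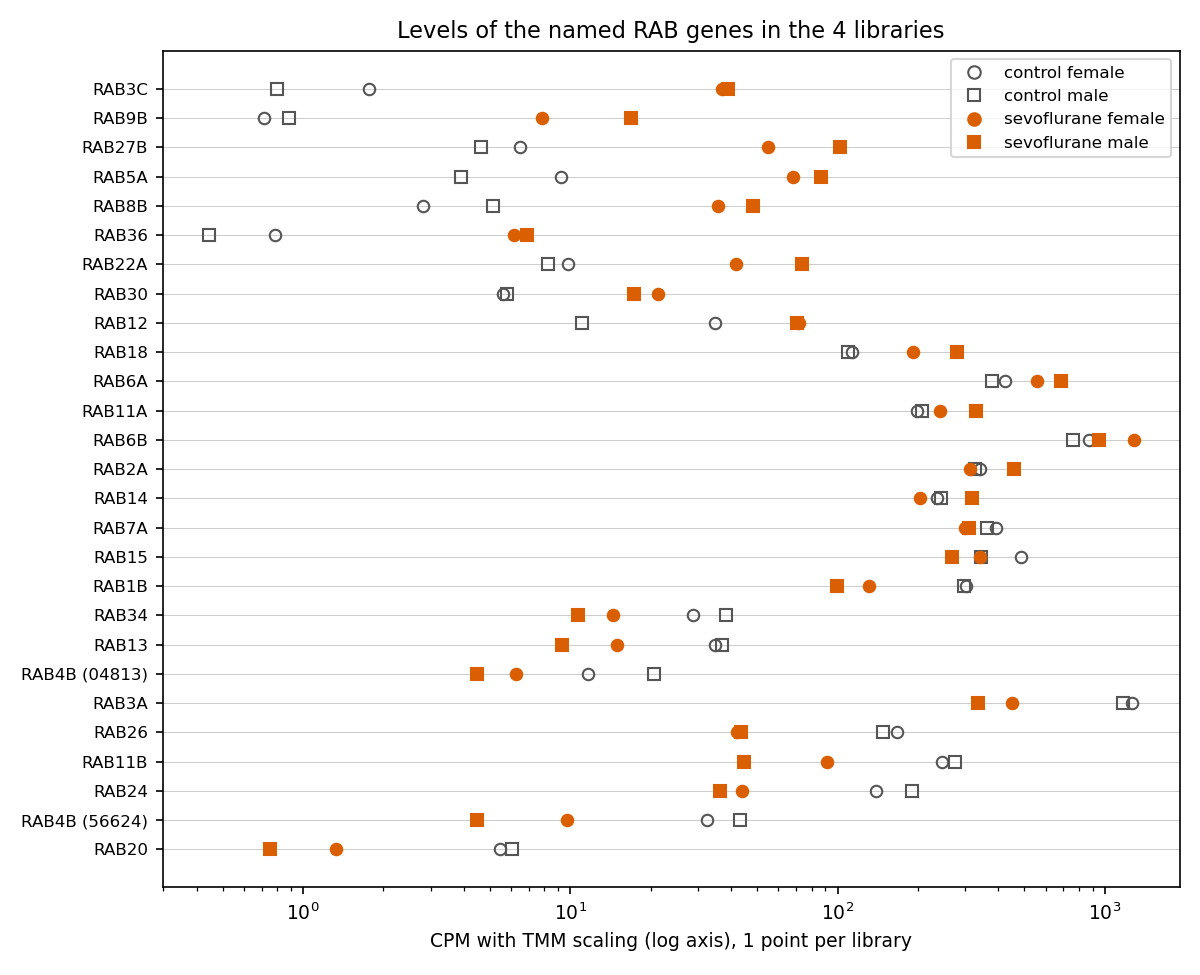
CPM of the named RAB genes is plotted on a log axis with 1 point per library (open for control, filled for sevoflurane, circles for females, squares for males). RAB3C, RAB9B, RAB27B, RAB5A and RAB8B have both filled points well to the right of the open ones, while RAB3A, RAB26, RAB11B and RAB24 have them to the left.

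RAB genes of the endoplasmic reticulum and Golgi made up the largest group. Of 14, 4 rose and 3 fell (28.6% and 21.4%, beside 21.3% and 19.4% of all tested genes), and 7 were not called. The median log2 fold change of the 14 was 0.43. With the control female left out 2 were called higher, with the sevoflurane male left out 1 was, and with the control male left out the median was 0.26. Library totals gave a median of 0.66. RAB1B, which with RAB1A drives traffic from the endoplasmic reticulum to the Golgi, was at 302 and 298 CPM in the control female and male and at 131 and 99.9 CPM in the sevoflurane female and male (-1.38 ± 0.26, edgeR adjusted p = 0.0092). RAB1A was not called (0.07 ± 0.28) and its libraries overlapped. RAB33A, found on vesicles moving down growing axons, fell by 1.29 ± 0.27, from 58.5 and 60.6 CPM in the control female and male to 24.1 and 24.7 CPM in the sevoflurane female and male.

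RAB34, which positions lysosomes at the Golgi and takes part in building cilia, was at 28.7 and 38.2 CPM in the control female and male and at 14.5 and 10.7 CPM in the sevoflurane female and male (-1.41 ± 0.35). Its call was lost when either male library was left out. RAB36, the nearest relative of RAB34, moved the other way, from 0.783 and 0.444 CPM in the control female and male to 6.14 and 6.87 CPM in the sevoflurane female and male (3.37 ± 0.63, edgeR adjusted p = 0.00872). The reads behind the control values were 12 and 5, and the call was lost without the sevoflurane male library.

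RAB30, a Golgi RAB, was at 5.61 and 5.77 CPM in the control female and male and at 21.3 and 17.4 CPM in the sevoflurane female and male (1.76 ± 0.38), a call lost without the sevoflurane female library. RAB18, which acts at the endoplasmic reticulum and lipid droplets and is activated by the RAB3GAP complex, was at 114 and 109 CPM in the control female and male and at 192 and 279 CPM in the sevoflurane female and male (1.08 ± 0.28). RAB39B, an X-linked gene of neuronal development, rose by 0.88 ± 0.28. The calls of RAB18 and RAB39B were lost without either control library and without the sevoflurane male.

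The genes of this group with the most reads were not called. RAB6B, the brain-enriched form of the Golgi RAB6, was at 869 and 762 CPM in the control female and male and at 1280.1 and 953 CPM in the sevoflurane female and male (0.45 ± 0.28). RAB6A was at 422 and 379 CPM in the control female and male and at 558 and 683 CPM in the sevoflurane female and male (0.63 ± 0.26, edgeR adjusted p = 0.0948). Both sevoflurane libraries lay above both controls for RAB6A and RAB6B, and RAB6A was called with library totals in place of TMM (0.86). RAB2A, which acts between the endoplasmic reticulum and the Golgi, overlapped at 342 and 327 CPM in the control female and male and 313 and 459 CPM in the sevoflurane female and male. RAB2B (0.40 ± 0.30) and RAB33B, a partner of the autophagy machinery (0.34 ± 0.32), were not called. RAB39A (2.12 ± 0.80) was not called either. In females its log2 difference was 3.46 and in males 0.87. It came to 3.30 with the control male left out and to 1.45 with the control female left out. Its control reads were 9 in the female and 25 in the male. It was called by DESeq2, without the filter on low counts and with sex as a term.

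Among early endosome RABs 3 of 8 rose and 1 fell, with a median log2 fold change of 0.30. These are 37.5% and 12.5%, beside 21.3% and 19.4% of all tested genes. The median ran from 0.02 with the sevoflurane male left out to 0.50 with the control female left out, and was 0.11 with the control male and 0.47 with the sevoflurane female left out. The number that fell was 2 with the control male or the sevoflurane female left out, 0 with the sevoflurane male left out and 3 with sex as a term, and the 5 CPM filter gave a median of 0.82 over 7 genes. RAB5A, which through the tether EEA1 drives the fusion of early endosomes, was at 9.26 and 3.91 CPM in the control female and male and at 68.2 and 86.5 CPM in the sevoflurane female and male. The rise was 3.54 ± 0.48 (edgeR adjusted p = 0.00348), and 4.33 without the control female library. RAB22A, which acts at early and recycling endosomes, was at 9.79 and 8.26 CPM in the control female and male and at 41.6 and 73.4 CPM in the sevoflurane female and male (2.67 ± 0.39).

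RAB5B rose by 0.82 ± 0.26, a call lost when any 1 of the 4 libraries was left out, and RAB5C, the third form, was not called (-0.73 ± 0.30), although both sevoflurane libraries were below both controls. RAB5C was called without the sevoflurane female library (-1.10) and with sex as a term. RAB21, which carries integrins through endosomes, was not called (0.83 ± 0.31), and was called without the sevoflurane female library (1.15), with library totals (1.06), without the filter and with sex as a term. RAB31, the relative of RAB22A, overlapped between conditions (-0.21 ± 0.28).

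RAB20, a RAB of phagosomes that macrophages express, fell from 5.48 and 6.04 CPM in the control female and male to 1.33 and 0.756 CPM in the sevoflurane female and male (-2.45 ± 0.61, edgeR adjusted p = 0.0219), a call lost without either sevoflurane library. Of 8 microglial markers 5 were called lower, as given above. CX3CR1 (-1.15), P2RY12 (0.23) and TMEM119 (0.70) were not called. The part of these markers in the RAB20 value was not tested. RAB17, an epithelial and dendritic RAB, had 93, 23, 19 and 0 reads in the control female, control male, sevoflurane female and sevoflurane male libraries. It was not called (-2.73 ± 1.37), and was called without the control male (-3.34) or the sevoflurane female, without the filter and with sex as a term, and without the control female or the sevoflurane male it was at -1.73 or -1.75. With the sevoflurane female left out, the 0 reads of the sevoflurane male were set against a floor of 3 reads (0.206 CPM). The pooled level of both controls was at least 21.2-fold above that floor. Of the 116 control reads, 93 were in the control female.

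None of the 8 recycling endosome rows rose and 3 fell (0% and 37.5%, beside 21.3% and 19.4% of all tested genes). The median log2 fold change of -0.28 came to -0.01 with the control female left out and to -0.60 with the control male left out. It came to -0.46 with the sevoflurane female left out and to -0.06 with library totals. RAB11B, 1 of 2 RAB11 forms of the perinuclear recycling endosome, was at 246 and 276 CPM in the control female and male and at 91.4 and 44.8 CPM in the sevoflurane female and male (-1.94 ± 0.38, edgeR adjusted p = 0.0102), and at -2.53 without the sevoflurane female library. RAB11A, known for returning glutamate receptors to dendritic spines, was at 198 and 207 CPM in the control female and male and at 242 and 330.3 CPM in the sevoflurane female and male, and was not called (0.50 ± 0.27).

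Both rows of RAB4B, a RAB of fast recycling from early endosomes, fell. The row ENSMMUG00000056624 was at 32.5 and 43.2 CPM in the control female and male and at 9.68 and 4.46 CPM in the sevoflurane female and male (-2.42 ± 0.46), and at -3.07 without the sevoflurane female library. The row ENSMMUG00000004813 was at 11.7 and 20.6 CPM in the control female and male and at 6.27 and 4.46 CPM in the sevoflurane female and male (-1.59 ± 0.47). The call of ENSMMUG00000004813 did not hold with library totals, nor with the control male or either sevoflurane library left out. How reads are split between the RAB4B rows is uncertain, since the counting rule is not known. RAB4A overlapped between conditions (-0.03 ± 0.26). RAB15, which slows receptor recycling, was at 485 and 345 CPM in the control female and male and at 341 and 267 CPM in the sevoflurane female and male, and was not called (-0.45 ± 0.29). RAB14, of the route between Golgi and endosomes, overlapped at 235 and 243 CPM in the control female and male and 204 and 319 CPM in the sevoflurane female and male, as did RAB35, of a fast recycling route (-0.12 ± 0.38).

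Of 7 late endosome and lysosome RABs, 2 rose and 1 fell (28.6% and 14.3%, beside 21.3% and 19.4% of all tested genes). Their median log2 fold change was -0.30. That median changed sign under another filter, to 0.67 over the 4 genes with at least 5 CPM in 2 libraries, and was -0.07 with library totals and -0.11 with the control male left out. With any library but the control female left out 1 of the 7 rose, and with the control female left out 2 fell. RAB9B, of the route from late endosomes back to the Golgi, had 11 and 10 reads (0.718 and 0.888 CPM) in the control female and male and 124 and 246 reads (7.85 and 16.9 CPM) in the sevoflurane female and male. The rise was 3.94 ± 0.63 (edgeR adjusted p = 0.00542), and 3.28 without the sevoflurane male library. RAB24, linked to autophagosome clearance, was at 139.6 and 190.3 CPM in the control female and male and at 44.1 and 36.2 CPM in the sevoflurane female and male (-2.04 ± 0.29, edgeR adjusted p = 0.00388).

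RAB12, a substrate of the kinase LRRK2, was at 34.8, 11.1, 71.7 and 70.5 CPM in the control female, control male, sevoflurane female and sevoflurane male libraries (1.63 ± 0.52). The control libraries lay far apart for RAB12, which came to 2.70 with the control female left out and to 0.998 with the control male left out, and its call was lost without any 1 library but the control female. RAB7A, the central RAB of late endosomes and lysosomes, was not called (-0.30 ± 0.24), with 390.5 and 362 CPM in the control female and male and 300.3 and 309.6 CPM in the sevoflurane female and male. RAB7B was not called (-1.31 ± 0.75), with 8.44 CPM in the control male and 1.84 to 2.47 CPM in the other libraries. It came to -1.94 with the control female left out and to -0.11 with the control male left out. RAB32, of lysosome-related organelles, was not called (-0.64 ± 0.54). RAB9A, with 17 to 22 reads in each library, was not called.

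Of 4 RABs that carry Golgi-derived vesicles to the plasma membrane, 2 rose and 1 fell. These are 50% and 25%, beside 21.3% and 19.4% of all tested genes. The median log2 fold change of the 4 was 0.01, and it was -0.16 without the sevoflurane male and 0.24 with library totals. With the sevoflurane male left out 1 rose and 0 fell, and with either control left out 1 rose. RAB8B was at 2.81 and 5.15 CPM in the control female and male and at 35.6 and 48.4 CPM in the sevoflurane female and male (3.41 ± 0.44, edgeR adjusted p = 0.00309). RAB8A, its paralog and a RAB of cilium growth, was not called (-0.81 ± 0.30), and its sevoflurane libraries were below both controls. RAB10, which delivers membrane to growing axons, rose by 0.84 ± 0.26, a call lost without either control and without the sevoflurane male library. RAB13, of tight junctions and neurite growth, was at 34.8 and 36.9 CPM in the control female and male and at 15.0 and 9.34 CPM in the sevoflurane female and male (-1.56 ± 0.36), a call lost without the sevoflurane male library.

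Among the remaining 4, RAB40C, an adaptor of ubiquitin ligases, fell by 1.02 ± 0.31, a call lost with library totals and without each library but the sevoflurane female. Its relative RAB40B was not called (0.42 ± 0.51). RAB23, a regulator of Hedgehog signalling, was not called (0.92 ± 0.31, edgeR adjusted p = 0.0514), with both sevoflurane libraries above both controls. RAB23 was called by DESeq2, with library totals, with either other filter, with sex as a term and without the sevoflurane female library. RAB28, a RAB of the cilium, overlapped (-0.02 ± 0.28). The 7 rows below the limit of reads were RAB19, RAB25, RAB38, RAB40A, RAB41, RAB42 and RAB44, of which RAB44 came nearest with 9, 6, 27 and 3 reads in the control female, control male, sevoflurane female and sevoflurane male libraries.

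The ratio of 2 paralogs within a library does not depend on the scaling between libraries. In 19 pairs fixed by name, the log2 ratio of reads was compared over the 4 libraries, and in 15 pairs (78.9%) the conditions did not overlap. Over all pairs of tested genes the share was 73.1%, so the count itself is near the background. The exact two-sided permutation test with 2 libraries against 2 cannot go below 0.333, the value of all 15. RAB3A over RAB3C stood at 9.46 and 10.4 (log2) in the control female and male and at 3.60 and 3.10 in the sevoflurane female and male, a difference of -6.60 between the condition means. Among the 19 pairs it was the only one with 1 gene called higher and the other lower. RAB34 and RAB36, also called in opposite directions, were not among these pairs. RAB5A over RAB5C went from -4.49 and -5.85 in the control female and male to -1.24 and -0.22 in the sevoflurane female and male, a difference of 4.43. RAB3B over RAB3C differed by -4.36, RAB8A over RAB8B by -4.25 and RAB9A over RAB9B by -3.71.

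For several pairs the ratio crossed 0, so that the form with more reads changed. RAB11A over RAB11B was -0.31 and -0.42 in the control female and male and 1.41 and 2.88 in the sevoflurane female and male. RAB1A over RAB1B was -0.27 and -0.73 in the control female and male and 0.64 and 1.31 in the sevoflurane female and male. RAB8A over RAB8B went from 3.70 and 3.06 in the control female and male to -0.78 and -0.95 in the sevoflurane female and male. RAB6A over RAB6B, RAB2A over RAB2B, RAB7A over RAB7B and RAB39A over RAB39B were the 4 pairs that overlapped between conditions.

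**Figure D3:**
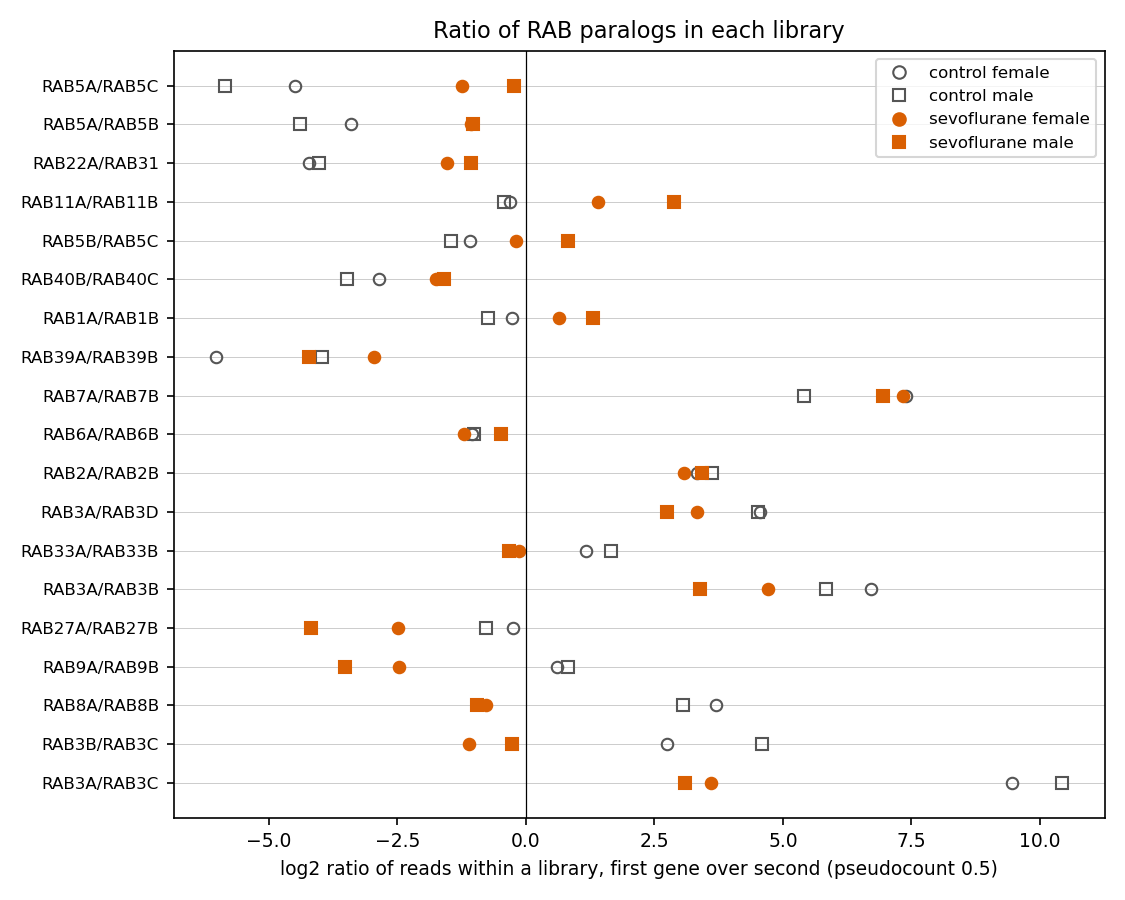
The log2 ratio of reads of 2 paralogs within a library is plotted for 19 pairs, with 1 point per library (open for control, filled for sevoflurane, circles for females, squares for males). In 15 pairs both filled points lie on 1 side of both open points, with the widest gap for RAB3A over RAB3C.

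Levels were also summed over subfamilies. The ratio of a sum always lies between the ratios of its members, so a smaller ratio than that of 1 member is no result. The 3 RAB5 genes together were at 316 and 315 CPM in the control female and male and at 372 and 365 CPM in the sevoflurane female and male, a ratio of 1.17. The RAB11 sum was at 444 and 483 CPM in the control female and male and at 334 and 375 CPM in the sevoflurane female and male, a ratio of 0.765. The ratio was 1.47 for the RAB8 sum and 0.663 for the RAB1 sum. The RAB3 sum, most of it RAB3A, went from 1327 and 1242 CPM in the control female and male to 546 and 457 CPM in the sevoflurane female and male, a ratio of 0.39. The RAB27 sum was 9.01-fold higher, from 11.9 and 7.28 CPM in the control female and male to 64.8 and 108 CPM in the sevoflurane female and male. For RAB9 the sum was 6.39-fold higher, from 1.83 and 2.49 CPM in the control female and male to 9.24 and 18.3 CPM in the sevoflurane female and male. These sums have no test, and a longer transcript gives more reads, so each weighs its members unequally.

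The direction of change was compared between the sexes, whose contrasts share no library. Of 53 members, 45 had a log2 difference of the same sign in females and males, which is 84.9% beside 85.3% of all tested genes. In a direct comparison of males with females, adjusted for condition, 0 RAB genes were called by edgeR's quasi-likelihood test, beside 1.84% of all genes, with a smallest adjusted p of 0.242. At an unadjusted p under 0.05 there were 3 (RAB17, RAB3B and RAB12), and DESeq2 called 0. With 1 residual degree of freedom this comparison can miss differences.

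**Figure D4:**
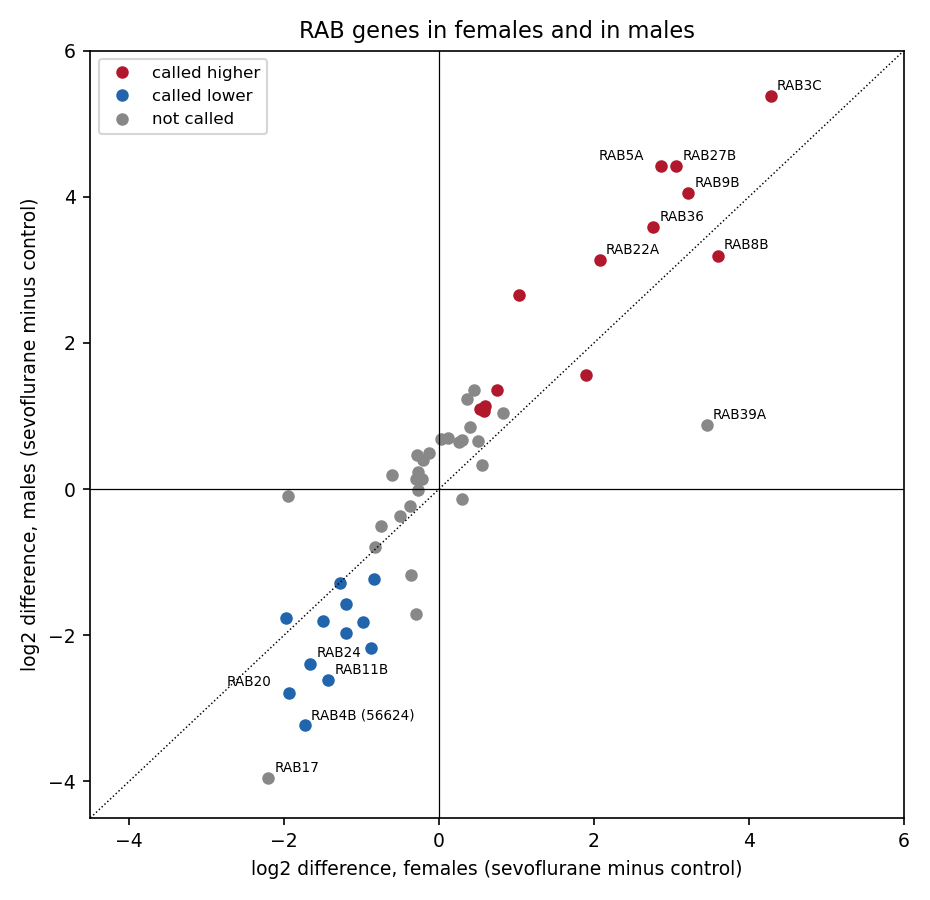
Log2 differences between the sevoflurane and control library (log2 CPM, prior count 2) are plotted for females on the horizontal and males on the vertical axis, 1 point per RAB row, with colours as for the calls of the edgeR fit and a dotted line of equality. Of the 53 points 45 lie in the lower left and upper right fields, where both sexes share a sign.

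The genes that prenylate, switch or bind RAB proteins were counted from fixed lists. Of 123 tested, 52 rose and 16 fell, which is 42.3% and 13.0% beside 21.3% and 19.4% of all tested genes, with a median log2 fold change of 0.58. Without the sevoflurane male or the control male library fewer of these were called, as were fewer of all tested genes. The median was then 0.56 and 0.45. Among 7 genes of prenylation and membrane recycling 1 rose and 3 fell, and without either male library 1 fell. CHM, the escort protein that presents new RABs for prenylation, was at 41.9 and 30.2 CPM in the control female and male and at 105 and 113 CPM in the sevoflurane female and male (1.60 ± 0.28, edgeR adjusted p = 0.00724). RABGGTA, the alpha subunit of the prenylating enzyme, fell by 1.38 ± 0.32, a call lost without either male library. RABAC1, a membrane protein that takes part in placing RABs on membranes, fell by 2.57 ± 0.35, from 214 and 362 CPM in the control female and male to 54.4 and 42.3 CPM in the sevoflurane female and male.

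Of 35 exchange factors 13 rose and 5 fell (37.1% and 14.3%, beside 21.3% and 19.4% of all tested genes). Their median log2 fold change was 0.44, and 0.26 with the control female left out. DENND4C, which activates RAB10, was at 0.587 and 0.622 CPM in the control female and male and at 19.2 and 28.8 CPM in the sevoflurane female and male (5.29 ± 0.50). DENND2C had 1 control read and 56 sevoflurane reads, a ratio of 49.0 (95% exact interval 8.45 to 1971, which covers counting error only). With the control female left out the DENND2C ratio was 20.8 (3.58 to 835). With the control male left out, DENND2C pooled over both sevoflurane libraries was at least 9.43-fold higher against a floor of 0.196 CPM (3 reads). Its call was lost without either sevoflurane library. RIN3, an exchange factor of RAB5, fell by 2.47 ± 0.55, a call lost without the sevoflurane male. DENND2D fell by 3.21 ± 0.91, a call lost without the control male (-2.46) or either sevoflurane library (-2.75 without the female and -3.83 without the male).

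Without the sevoflurane female library 8 exchange factors rose, and without the sevoflurane male 1 fell. Of 38 GTPase-activating proteins 14 rose and 5 fell (36.8% and 13.2%, beside 21.3% and 19.4% of all tested genes). The median log2 fold change of these 38 was 0.55. With the control male, the sevoflurane female or the male exposed to sevoflurane left out in turn, 9 of these rose each time and 3, 4 and 0 fell, and the median with the sevoflurane female left out was 0.38. TBC1D4, known for restraining glucose transporter vesicles, was at 0.326 and 0 CPM in the control female and male and at 26.0 and 14.1 CPM in the sevoflurane female and male (6.73 ± 0.95). TBC1D4 came to 5.87 with the control male left out. Once the control female was left out, its level pooled over both sevoflurane libraries was at least 76.3-fold higher, for a floor of 0.266 CPM (3 reads). TBCK rose by 4.84 ± 0.49. SGSM3 and TBC1D17 fell by 1.27 ± 0.29 and 1.48 ± 0.36, calls lost without the sevoflurane male library.

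Of 40 effectors, 22 rose and 3 fell (55% and 7.5%, beside 21.3% and 19.4% of all tested genes). Their median log2 fold change was 1.24, and 0.76 without the control male library. EEA1, the early endosome tether of RAB5, was at 0.652 and 0.711 CPM in the control female and male and at 34.6 and 36.1 CPM in the sevoflurane female and male, a rise of 5.68 ± 0.41 (edgeR adjusted p = 0.00141). SYTL5, a RAB27 effector, rose by 6.06 ± 0.70, and without the control female library, where 1 control read was left, by a ratio of 169.8 (95% counting interval 30.3 to 6723). RABEP2, a RAB4 and RAB5 effector, fell by 2.08 ± 0.37, and MICALL2, an effector of RAB8 and RAB13, by 1.96 ± 0.32. With sex as a term 7 effectors fell. Of the 3 enzymes that phosphorylate or dephosphorylate RABs, 2 rose. PPM1H, the phosphatase that reverses LRRK2 action, was at 1.30 and 1.60 CPM in the control female and male and at 34.8 and 26.9 CPM in the sevoflurane female and male (4.41 ± 0.41). LRRK2 rose by 1.86 ± 0.48 (2.68 without the control female), a call lost without the control male or either sevoflurane library, and LRRK1 was not called (-0.19 ± 0.54).

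**Figure D5:**
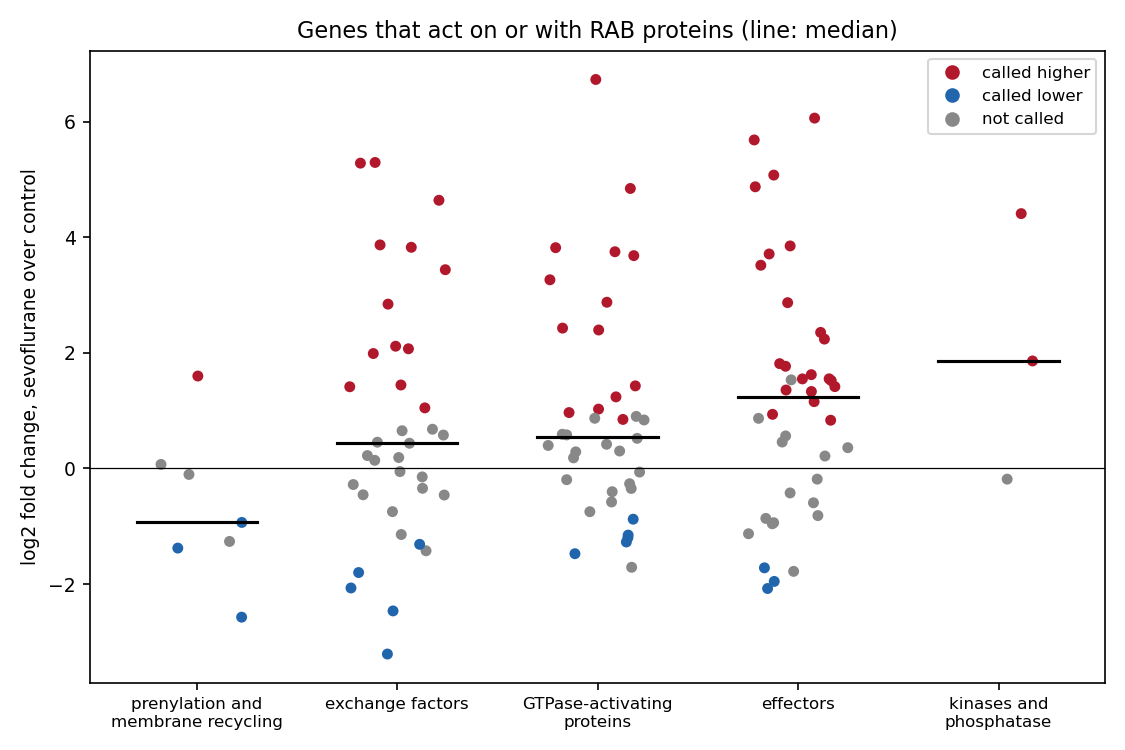
The log2 fold change (sevoflurane over control) of each tested gene of the 5 lists of RAB regulators and effectors is plotted as 1 point, with the median of each list as a line. The medians are -0.94 for prenylation and recycling, 0.44 for exchange factors, 0.55 for GTPase-activating proteins, 1.24 for effectors and 1.86 for the 3 kinases and phosphatase.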

How the data were processed

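RNA from 4 amygdala libraries was analysed. The authors deposited raw read counts per Ensembl macaque gene, 1 column per library and 35395 rows. Reads were aligned with HISAT2, per the submitters' processing notes. The counting program, genome build, annotation and strand setting were not given in the sources used here. Symbols came from a table of gene IDs that named 24173 rows.

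Groups were taken from the treatment label. Low counts were filtered with filterByExpr (minimum count 10, by group) and scaled with TMM. Conditions were compared in edgeR 4.0.16 (R 4.3.3) by the quasi-likelihood F-test over all 15417 genes passing the filter, with condition as the only term. Calls were made at an adjusted p (Benjamini-Hochberg) under 0.05. Males and females were compared with condition and sex as terms. SEs came from the F statistic. Paralog ratios used a pseudocount of 0.5 reads. The code was tested on simulated data. Alternatives were DESeq2 1.42.0, other scalings and filters, sex as a term, and leaving out each library.

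The rule for named genes covered the 8 RAB genes with the most reads, the 10 called genes with the largest rise and the 10 with the largest fall. It also covered every called RAB3 and RAB27 gene and genes of the fixed paralog pairs called in opposite directions. In each list of RAB regulators, it covered up to 2 called genes in each direction. Other RAB genes are given more briefly, to account for the whole family. The RAB genes and the lists were chosen with earlier results of these data known. The values of 1 gene of the prenylation and recycling list are not reported here.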

Additional observations from a re-analysis of the deposited data

Results flagged for a closer look

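In 8 RAB genes the sevoflurane library lay on opposite sides of the control library in females and males. That count is near the background, since 84.9% of the 53 members moved the same way in both sexes, beside 85.3% of all tested genes. With 1 library per sex and condition the difference between the sexes was not tested for any of the 8 genes. None of the 8 was called in the comparison of conditions, and all but RAB31 had a log2 difference under 0.5 in both sexes. The log2 difference was -0.61 in females and 0.20 in males for RAB31, a RAB of early endosomes. For the RABs of the early secretory pathway it was -0.29 in females and 0.46 in males for RAB1A, and -0.13 in females and 0.49 in males for RAB2A. Among recycling RABs it was -0.20 in females and 0.40 in males for RAB14, -0.28 and 0.24 for RAB4A, and -0.29 and 0.14 for RAB35, in the same order. It was -0.21 in females and 0.14 in males for RAB28. RAB9A was the one gene higher in females (0.30) and lower in males (-0.14), on 17 to 22 reads per library.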

How the results depend on the processing

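The counts of called RAB genes (13 higher, 12 lower) stayed within 1.5 times under every other scaling, test and filter run, at 13 to 16 higher and 10 to 13 lower. Leaving out 1 library gave 7 to 12 higher and 7 to 12 lower, both lowest without the sevoflurane male, and 35 to 49 higher and 5 to 15 lower genes of the regulator lists. Calls over all tested genes were also fewest without the sevoflurane male. Library totals moved the median of all tested genes from 0.00401 to 0.24, and that of the RAB genes from 0.07 to 0.31. With the sex as a replicate block, 16 RAB genes were called higher and 14 lower, and all 25 calls held. The share called over all tested genes, in either direction, rose too, from 40.7% to 50.8%. The libraries share only a sex across conditions, and their male minus female differences correlated at 0.33 across genes. Genes near 0, none of them called, changed sign. With library totals these were RAB28 (0.21), RAB31 (0.0127), RAB35 (0.10), RAB3D (0.0898) and RAB4A (0.20), and RAB28 was at 0.00469 by DESeq2 and 0.00218 without the filter. Over the fits without 1 library the log2 fold change ran from -0.22 to 0.43 for RAB14, from -0.17 to 0.35 for RAB1A, from -0.27 to 0.21 for RAB28, from -0.0914 to 0.47 for RAB2A, from -0.45 to 0.0546 for RAB31, from -0.49 to 0.34 for RAB35, from -0.21 to 0.17 for RAB4A and from -0.15 to 0.32 for RAB9A. The causes were not tested. Depth limits the genes with few reads in 1 condition, such as RAB3C, RAB9B, RAB17 and RAB36.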
